A study of Mus musculus with 10 samples.

Results

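RNA polymerase II, the general transcription factors and Mediator make up the machinery that starts transcription of protein-coding genes, and 59 of their genes are described here in mouse fetal oocytes. They are the protein-coding genes whose symbols run from Polr2a to Polr2m, begin with Gtf2, or are Med followed by a number and an optional l, of 55536 genes counted and 21816 that are protein-coding. They comprise 13 genes of RNA polymerase II, 16 of the general factors and 30 of Mediator. All 59 start and end at the same bases in the GENCODE M21 annotation of GRCm38, and 58 were abundant enough to be tested.

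RNA was sequenced from 10 libraries of oocytes sorted at E16.5, late in fetal life when oocytes are in meiotic prophase, of which 5 were Taf4b-heterozygous and 5 Taf4b-deficient. TAF4b is a subunit of TFIID enriched in gonads, where TFIID is the factor that recognises core promoters, and the design asks which oocyte transcripts differ when it is lacking. All libraries came from female C57BL/6 embryos of parents homozygous for an Oct4-EGFP transgene, which marks germ cells, and heterozygous for the Taf4b-deficiency mutation, so the controls carry the mutation on a single allele, and no wild-type library is used here. Live GFP-positive cells were sorted from dissociated gonads, per the labels. Each library has a litter date, of which there are 3, and the labels do not say if each library is a separate embryo, so the p-values rest on the spread among these libraries, which may be partly technical.

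At a promoter, RNA polymerase II is positioned by TFIIA, TFIIB, TFIID, TFIIE, TFIIF and TFIIH, and TFIIH opens the DNA and phosphorylates the repeated tail of the largest polymerase subunit. Mediator bridges DNA-bound activators and this assembly through its head, middle and tail, held on a central scaffold, and its detachable kinase module of MED12, MED13, cyclin C and CDK8 or CDK19 controls when Mediator can meet the polymerase. TAF4b belongs to the same assembly, as part of TFIID.

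Total counts ran from 16707216 to 26983565 per library. Taf4b was at 174 ± 101 CPM (counts scaled to a common library size; SD, n = 5) in the heterozygous libraries and 74.9 ± 9.86 CPM (SD, n = 5) in the deficient ones. The library labelled heterozygous 4 had 65.7 CPM, inside the span of 58.2 to 81.7 CPM set by deficient libraries, so its label is not checked by Taf4b. Germ cell markers summed to between 4716 and 6893 CPM over the libraries, although Pou5f1, the gene behind the sorting transgene, lay between 0.173 and 1.16 CPM. Erythroid markers summed to between 65.0 and 2084 CPM in the heterozygous and between 107 and 1606 CPM in the deficient libraries, with the embryonic globin Hbb-bh1 at 0 throughout. The alpha-globin gene Hba-a1 was highest in the library labelled heterozygous 4, heterozygous 5 and deficient 5, at 260.4, 798 and 590 CPM, against 24.0 to 102 CPM elsewhere. Pregranulosa, stromal, endothelial and surface epithelial lists each summed to at most 92.0 CPM, and macrophage genes to between 79.5 and 225 CPM. No marker of the 7 lists passed the test, but neither did any of the 19244 genes, so this does not show equal cell content. Fold changes were negative for 6 of 6 tested erythroid, 6 of 6 macrophage and 6 of 7 germ cell markers. They were positive for 5 of 7 pregranulosa, 5 of 6 stromal, 4 of 5 endothelial and 1 of 3 surface epithelial markers. The part of these cells in the results below was not tested. In bulk samples, fewer cells of a type and less RNA per cell cannot be told apart.

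Promoter sequences are shown for the 4 genes whose genotypes did not overlap in any library, none of which passed the test on genotype alone. They are Med13, Gtf2i and Polr2a, higher in all deficient libraries, and Med25. Med25 was lower in all of them at this scaling but in only 10 of 28 alternatives. Each window runs from 250 bases before to 50 bases after the annotated start, from RefSeq on GRCm38.p6, 5′ to 3′ on the gene's strand. Capitals mark the core of the GC box, GGGCGG on either strand, and the TATA box, for which the search used TATAAA.
Med13 (chr11:86357547-86357846, minus strand): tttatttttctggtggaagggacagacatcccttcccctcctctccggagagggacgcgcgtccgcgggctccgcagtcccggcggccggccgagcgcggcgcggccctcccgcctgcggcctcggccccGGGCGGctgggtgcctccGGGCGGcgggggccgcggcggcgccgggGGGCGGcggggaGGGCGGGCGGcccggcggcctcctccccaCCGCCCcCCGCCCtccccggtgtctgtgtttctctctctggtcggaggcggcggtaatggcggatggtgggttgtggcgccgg
Gtf2i (chr5:134314711-134315010, minus strand): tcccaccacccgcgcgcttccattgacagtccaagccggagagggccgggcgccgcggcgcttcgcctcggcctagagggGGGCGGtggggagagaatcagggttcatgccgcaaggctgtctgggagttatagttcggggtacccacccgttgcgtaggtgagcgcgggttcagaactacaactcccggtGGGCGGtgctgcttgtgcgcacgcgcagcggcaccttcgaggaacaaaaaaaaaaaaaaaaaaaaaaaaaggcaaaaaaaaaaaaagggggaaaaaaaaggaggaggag
Polr2a (chr11:69758584-69758883, minus strand): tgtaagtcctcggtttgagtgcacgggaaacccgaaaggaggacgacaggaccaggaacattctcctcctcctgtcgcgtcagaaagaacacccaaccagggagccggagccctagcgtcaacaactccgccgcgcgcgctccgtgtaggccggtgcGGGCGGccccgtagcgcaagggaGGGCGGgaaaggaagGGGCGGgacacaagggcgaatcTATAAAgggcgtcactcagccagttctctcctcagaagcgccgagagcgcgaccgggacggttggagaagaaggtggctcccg
Med25 (chr7:44892375-44892674, minus strand): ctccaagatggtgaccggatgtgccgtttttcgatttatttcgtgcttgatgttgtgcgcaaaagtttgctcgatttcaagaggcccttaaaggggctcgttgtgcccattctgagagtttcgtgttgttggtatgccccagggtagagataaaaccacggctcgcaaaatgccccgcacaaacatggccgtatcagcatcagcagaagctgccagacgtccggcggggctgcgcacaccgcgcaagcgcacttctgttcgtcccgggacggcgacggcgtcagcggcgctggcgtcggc
The Med13 window held 7 GC box cores, of which a pair overlap, and the other windows held 2 for Gtf2i, 3 for Polr2a and 0 for Med25. The Med25 window lies wholly inside the gene's annotated span (chr7:44876765-44892712), whereas the other windows reach past the 5′ end of their genes. Its count of 0 is therefore not for the bases before that span. In Polr2a, TATAAA began 33 bases before the start. RefSeq windows were found for 51 of the 59 genes, 59 windows in all. GGGCGG on either strand was in 36 of these (61.0%), against 35.7% of 32851 windows of the same length over all genes. CCAAT on either strand was in 19 (32.2%, against 37.4%) and TATAAA on either strand in 7 (11.9%, against 13.6%). Windows over all genes were not matched to the set by gene type or level. These are matches of letters, not binding sites.

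None of the 58 tested genes differed between the genotypes at an adjusted p under 0.05 by edgeR's quasi-likelihood test on genotype alone, and neither did any other gene (0.0% of 19244). Taf4b itself was not called, at a log2 fold change of -1.22 ± 0.35 (SE; adjusted p = 0.155, edgeR). A lack of calls in this fit therefore does not show a lack of differences. At an unadjusted p under 0.05, 12 of the 58 were found (20.7%), against 16.6% of all genes. By direction, 6 were higher in deficient libraries, against 7.45% of all genes, and 6 lower, against 9.13%. The genotypes did not overlap for 4 of the 58 (6.90%), against 3.53% of all genes, with 3 higher (1.94% of all genes) and 1 lower (1.6%). Med13 and Gtf2i kept separate genotypes in all 28 alternatives and Polr2a in 27, whereas Med25 did so in 10. These alternatives are not separate checks of the gap. Models with a covariate use the same CPM as the main fit and could not change it. Leaving libraries out could close a gap only through a change of scaling. DESeq2 on the same counts gave 1 call, Med13, beside 3.35% of all genes, and limma voom with quality weights also called Med13 alone, beside 2.65%. The median log2 fold change, deficient over heterozygous, was -0.11 over the 58 and -0.015 over all genes tested. It was -0.18 for RNA polymerase II, -0.083 for the general factors and -0.10 for Mediator. By sign, 17 of the 58 were positive and 41 negative, against 9412 and 9832 of the 19244 genes. Of the 58, 29 lay within 0.25 and 47 within 0.5 of no difference on the log2 scale.

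**Figure D1:**
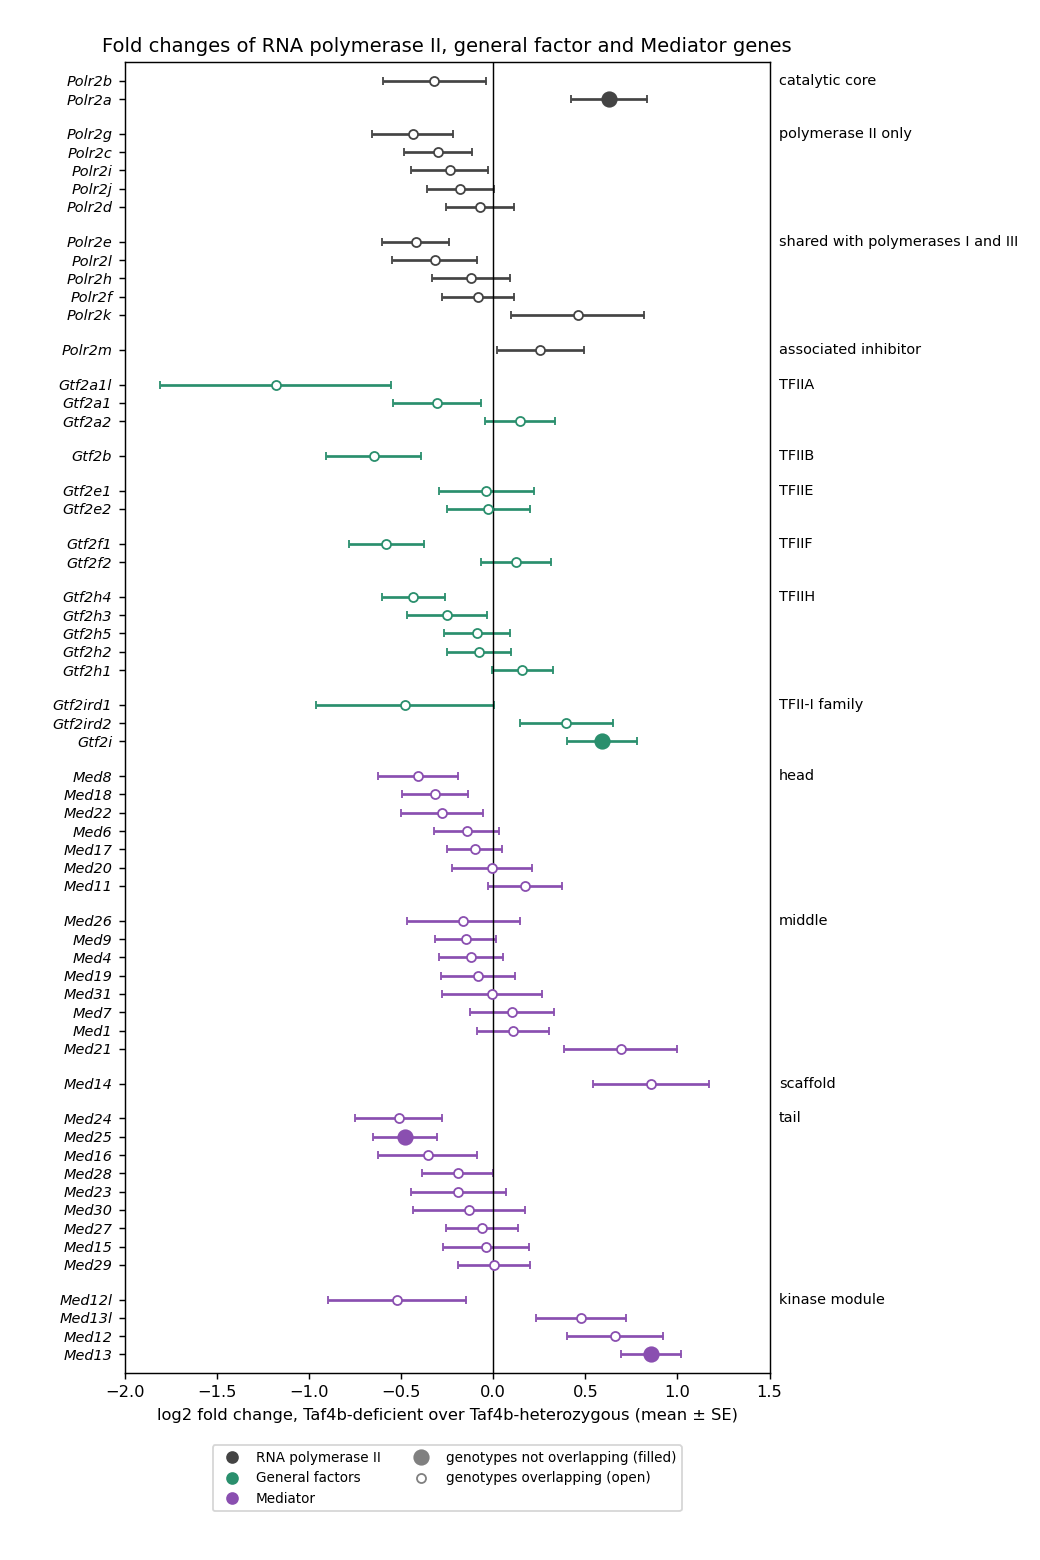
Log2 fold change of each of the 58 tested genes, deficient over heterozygous (x axis; points with SE bars from edgeR), grouped by complex and role (y axis). Most points sit between -0.5 and 0.5, and the filled points, whose genotypes do not overlap, are Polr2a, Gtf2i and Med13 on the right and Med25 on the left, at the scaling plotted.

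Within RNA polymerase II, the largest subunit stood apart from the others. Polr2a (ENSMUSG00000005198, chr11:69733997-69758637) encodes the catalytic subunit whose repeated tail is phosphorylated during the transcription cycle. In heterozygous libraries 1 to 5 it was at 243, 240.2, 202, 171 and 159.7 CPM, and in deficient libraries 1 to 5 at 298, 288, 429.8, 310.2 and 245 CPM. Every deficient library lay above every heterozygous library, with deficient 3 the highest and only a narrow gap between heterozygous 1 and deficient 5. That was a log2 fold change of 0.63 ± 0.21 (SE; adjusted p = 0.181, edgeR). Within the 3 litter dates the log2 differences were 0.30, 0.92 and 0.78, each from 1 or 2 libraries per genotype. Polr2b, which forms the other side of the catalytic cleft, ran the other way, at 593 ± 251 and 475 ± 114 CPM (SD, n = 5 each), and its genotypes overlapped. Its log2 fold change was -0.32 ± 0.28 (SE; adjusted p = 0.589, edgeR).

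The 5 small subunits found only in polymerase II (Polr2c, Polr2d, Polr2g, Polr2i and Polr2j) all had negative log2 fold changes, from -0.44 for Polr2g to -0.072 for Polr2d. Of the 5 shared with polymerases I and III, 4 were negative. Polr2e, a shared subunit, had the smallest p among these at an unadjusted 0.0377. Heterozygous libraries 1 to 5 held it at 161, 119, 192, 178 and 189.97 CPM, and deficient libraries 1 to 5 at 112, 127, 109, 129.98 and 149.9 CPM. Heterozygous 2 lay inside the deficient range and the other heterozygous libraries above it. The log2 fold change of Polr2e was -0.42 ± 0.18 (SE; adjusted p = 0.273, edgeR), and -0.31, -0.65 and -0.44 within litter dates. Polr2k, the smallest shared subunit, was the exception, at 44.7 to 89.7 CPM in 8 libraries and at 151 and 159.97 CPM in deficient 4 and deficient 5. Those libraries share litter date 3 with heterozygous 5, which was at 80.2 CPM. Its log2 fold change of 0.46 ± 0.36 (SE; adjusted p = 0.542, edgeR) was -0.32 without that litter date and -0.0060 with litter date in the model.

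The 10 small subunits tended to have their extreme values in the same libraries, and short genes in general shared this only in part. Deficient 3 was the lowest deficient library for 10 of the 10, against 23.3% of the 9235 genes at 10 CPM or more and 58.6% of the 850 among them that fall in the shortest of 5 exon length classes, a class with 6 of the 10. Heterozygous 2 was the lowest heterozygous library for 8, against 12.9% of the 9235 and 30.1% of the 850. Heterozygous 5 was the highest of all libraries for 6, against 18.6% and 34.0%. The median deviation of the 10 from each gene's mean, on the log2(CPM + 1) scale, was -0.43 in deficient 3, -0.29 in heterozygous 2 and 0.47 in heterozygous 5, and that of the 850 was -0.23, -0.26 and 0.26 in the same libraries. In heterozygous 3 the signs differed, at 0.23 for the 10 and -0.13 for the 850. It was the lowest heterozygous library for 2 of the 10, against 35.5% of the 850. The part of gene length in the small subunits' pattern was not tested. Polr2a had its highest level in the same deficient 3 where the small subunits had their lowest. Polr2m, which encodes a protein that binds the polymerase and restrains it, was at 154 ± 52.0 and 183 ± 18.5 CPM (SD, n = 5 each), and the library labelled heterozygous 4 was the lowest at 84.9 CPM.

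**Figure D2:**
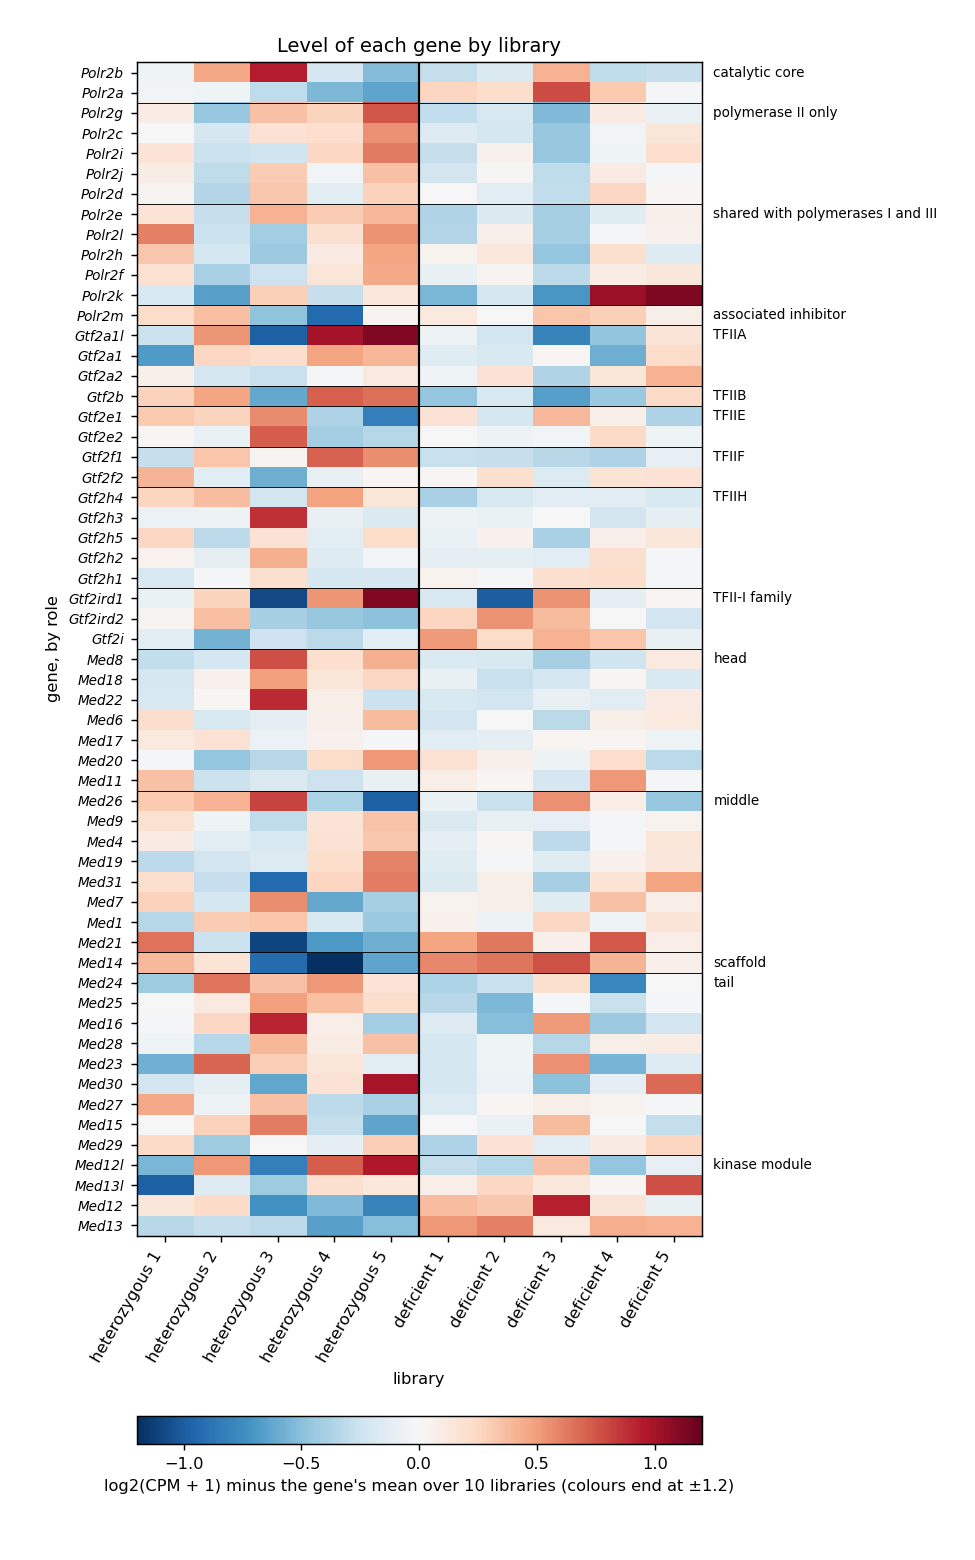
Level of each tested gene (rows, by complex and role) in each library (columns), as log2(CPM + 1) minus the gene's mean over the 10 libraries. Red is above and blue below the mean; Med13 is blue in the 5 heterozygous and red in the 5 deficient columns, while the small polymerase subunits are blue in heterozygous 2 and deficient 3.

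Among the general factors, Gtf2i was the only gene with genotypes that did not overlap. Gtf2i (ENSMUSG00000060261, chr5:134237834-134314760) encodes TFII-I, which binds initiator elements and also acts as a signal-responsive regulator. Heterozygous libraries 1 to 5 were at 18.1, 13.1, 16.6, 15.7 and 18.1 CPM. Deficient libraries 1 to 5 were at 28.7, 23.4, 26.9, 25.2 and 18.6 CPM, and deficient 5 lay just above the highest heterozygous library. This gave a log2 fold change of 0.59 ± 0.19 (SE; adjusted p = 0.176, edgeR). Within litter dates the differences were 0.86, 0.61 and 0.25. Its neighbours on chromosome 5 were low: Gtf2ird2 was at 10.2 ± 3.08 and 13.4 ± 2.97 CPM (SD, n = 5 each), and Gtf2ird1, linked to repression in muscle and nerve, lay between 1.04 and 8.29 CPM with overlapping genotypes. Gtf2ird1 had a log2 fold change of -0.48 ± 0.48 (SE), and 0.15 without the 3 libraries highest for Hba-a1.

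Of the 16 general factors none passed the test, and 3 were lower at an unadjusted p under 0.05, against 9.13% of all genes in that direction: Gtf2b, Gtf2f1 and Gtf2h4. Gtf2b encodes TFIIB, which links TBP to the polymerase and helps choose the start site. It was at 145, 166, 77.4, 197 and 189.6 CPM in heterozygous libraries 1 to 5, and 86.3, 105, 75.2, 87.3 and 140.2 CPM in deficient libraries 1 to 5. Heterozygous 3 lay among the deficient libraries, and the other heterozygous libraries lay above all of them. The fit gave a log2 fold change of -0.65 ± 0.26 (SE; adjusted p = 0.241, edgeR), and -0.84, -0.47 and -0.77 within litter dates.

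Gtf2f1, the large subunit of TFIIF, which escorts the polymerase to the promoter, was at 188, 287, 232, 370.5 and 334 CPM in heterozygous libraries 1 to 5. The deficient libraries lay close together at 188, 187, 180.2, 176 and 212 CPM, and heterozygous 1 fell among them. The log2 fold change of Gtf2f1 was -0.58 ± 0.20 (SE; adjusted p = 0.200, edgeR), and its partner in TFIIF, Gtf2f2, had 0.12 ± 0.19 (SE). Gtf2h4, a subunit of the TFIIH core that holds the XPB helicase, was at 107, 116, 76.5, 125 and 99.0 CPM in the heterozygous and 68.1, 78.4, 81.3, 81.1 and 78.7 CPM in the deficient libraries. Heterozygous 3 alone lay within the deficient range. Gtf2h4 had a log2 fold change of -0.43 ± 0.17 (SE; adjusted p = 0.237, edgeR), and the other TFIIH members ran from -0.25 for Gtf2h3 to 0.16 for Gtf2h1. Both TFIIE genes were close to no difference, at -0.037 ± 0.26 for Gtf2e1 and -0.027 ± 0.23 for Gtf2e2 (log2 fold change, SE).

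TFIIA is encoded by Gtf2a1 and Gtf2a2, and Gtf2a1l is a germ cell form of Gtf2a1 best known from the mouse testis. Gtf2a1l was low and uneven, at 1.01, 2.46, 0.216, 3.78 and 4.17 CPM in heterozygous libraries 1 to 5, and 1.301, 1.04, 0.372, 0.722 and 1.67 CPM in deficient libraries 1 to 5. Its highest values were in heterozygous 5 and the library labelled heterozygous 4, which also hold much Hba-a1, and its lowest was in heterozygous 3. Its fold change was -1.18 ± 0.63 on the log2 scale (SE; adjusted p = 0.356, edgeR), and -0.51 without the 3 libraries highest for Hba-a1. Gtf2a1 was at 31.2 ± 8.53 and 25.2 ± 5.17 CPM (SD, n = 5 each), with its lowest value, 16.67 CPM, in heterozygous 1. Its log2 fold change was -0.30 ± 0.24 (SE; adjusted p = 0.544, edgeR).

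In Mediator, most kinase module genes of the set and the scaffold gene had positive fold changes, while the head and tail were mostly negative. Of the 4 kinase module genes in the set, 3 were positive, with a median log2 fold change of 0.57 over the 4. Of 7 head genes 6 were negative, with a median of -0.14, and of 9 tail genes 8 were negative, with a median of -0.19. The 8 tested middle genes were centred on -0.046. None passed the test on genotype alone.

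Med13 (ENSMUSG00000034297, chr11:86267033-86357602) encodes the subunit that tethers the kinase module to the rest of Mediator. In heterozygous libraries 1 to 5 it was at 38.1, 39.8, 38.6, 30.4 and 33.5 CPM, and in deficient libraries 1 to 5 at 69.7, 73.97, 52.7, 65.6 and 64.9 CPM. The lowest deficient library, deficient 3, was above the highest heterozygous library by more than the whole heterozygous range. Its mean was 36.1 ± 3.99 CPM in the heterozygous and 65.4 ± 7.96 CPM in deficient libraries (SD, n = 5 each). The log2 fold change was 0.86 ± 0.16 (SE; adjusted p = 0.113, edgeR), and it was the smallest p of the 58 genes. The differences within litter dates were 0.82, 0.85 and 0.94. The deposited TPM, a length-scaled value from the same libraries, did not overlap between the genotypes, at 146 ± 12.6 and 246 ± 40.4 (SD, n = 5 each). For Med13 the mean deposited TPM was 14.9 times the TPM computed from the counts, against a median ratio of 0.44 over the tested genes.

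Whether Med13 passed the threshold depended on the model. Its adjusted p was 0.000605 with DESeq2 and 0.0338 with limma voom. It was 0.0361 in edgeR with a 3-level grouping of libraries inferred from the authors' deposited fold changes, where 0.54% of genes were called. In edgeR without heterozygous 1 it was 0.0363, where 3.07% were. Over all 28 alternatives it ran from 0.000605 to 0.961, and Med13 was called in 4 of them, with a log2 fold change between 0.74 and 1.03. Without the library labelled heterozygous 4 the fold change was 0.80. The antisense gene Brip1os shares 7.38% of the exon bases of Med13 and was at 12.5 ± 3.27 and 18.2 ± 2.96 CPM (SD, n = 5 each), so its reads cannot be told apart from those of Med13 unless the counting used strand, which is not given in the sources used here.

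Med12, on the X chromosome, activates the kinase through cyclin C. It was at 67.4, 71.9, 36.7, 42.2 and 34.8 CPM in heterozygous libraries 1 to 5, and 79.8, 76.8, 118, 68.2 and 57.6 CPM in deficient libraries 1 to 5. Heterozygous 1 and 2 lay among the deficient libraries, and the other heterozygous libraries below all of them. Its log2 fold change was 0.66 ± 0.26 (SE; adjusted p = 0.238, edgeR), and 0.19, 1.25 and 0.83 within litter dates. Med13l, the paralogue of Med13, was at 18.6, 34.0, 27.9, 43.4 and 41.4 CPM in the heterozygous and 39.9, 45.2, 41.3, 38.4 and 65.2 CPM in the deficient libraries. The high value of deficient 5 and the low value of heterozygous 1 set its range, and the genotypes overlapped. Its log2 fold change was 0.48 ± 0.25 (SE; adjusted p = 0.343, edgeR), and 0.64, 0.30 and 0.27 within litter dates. Med12l, the paralogue of Med12, was low, between 3.85 and 15.7 CPM, with a log2 fold change of -0.52 ± 0.37 (SE; adjusted p = 0.495, edgeR) that was 0.019 without the 3 libraries highest for Hba-a1.

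The module's other subunits have symbols outside the set. Cdk8, its kinase, was at 75.6, 62.7, 56.0, 41.6 and 43.7 CPM in the heterozygous and 84.5, 103, 83.2, 77.7 and 63.3 CPM in the deficient libraries, and heterozygous 1 alone lay above the lowest deficient library. The log2 fold change of Cdk8 was 0.56 ± 0.21 (SE; adjusted p = 0.214, edgeR). The alternative kinase Cdk19 had 0.21 ± 0.23 and the cyclin Ccnc -0.20 ± 0.17 (log2 fold change, SE).

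**Figure D3:**
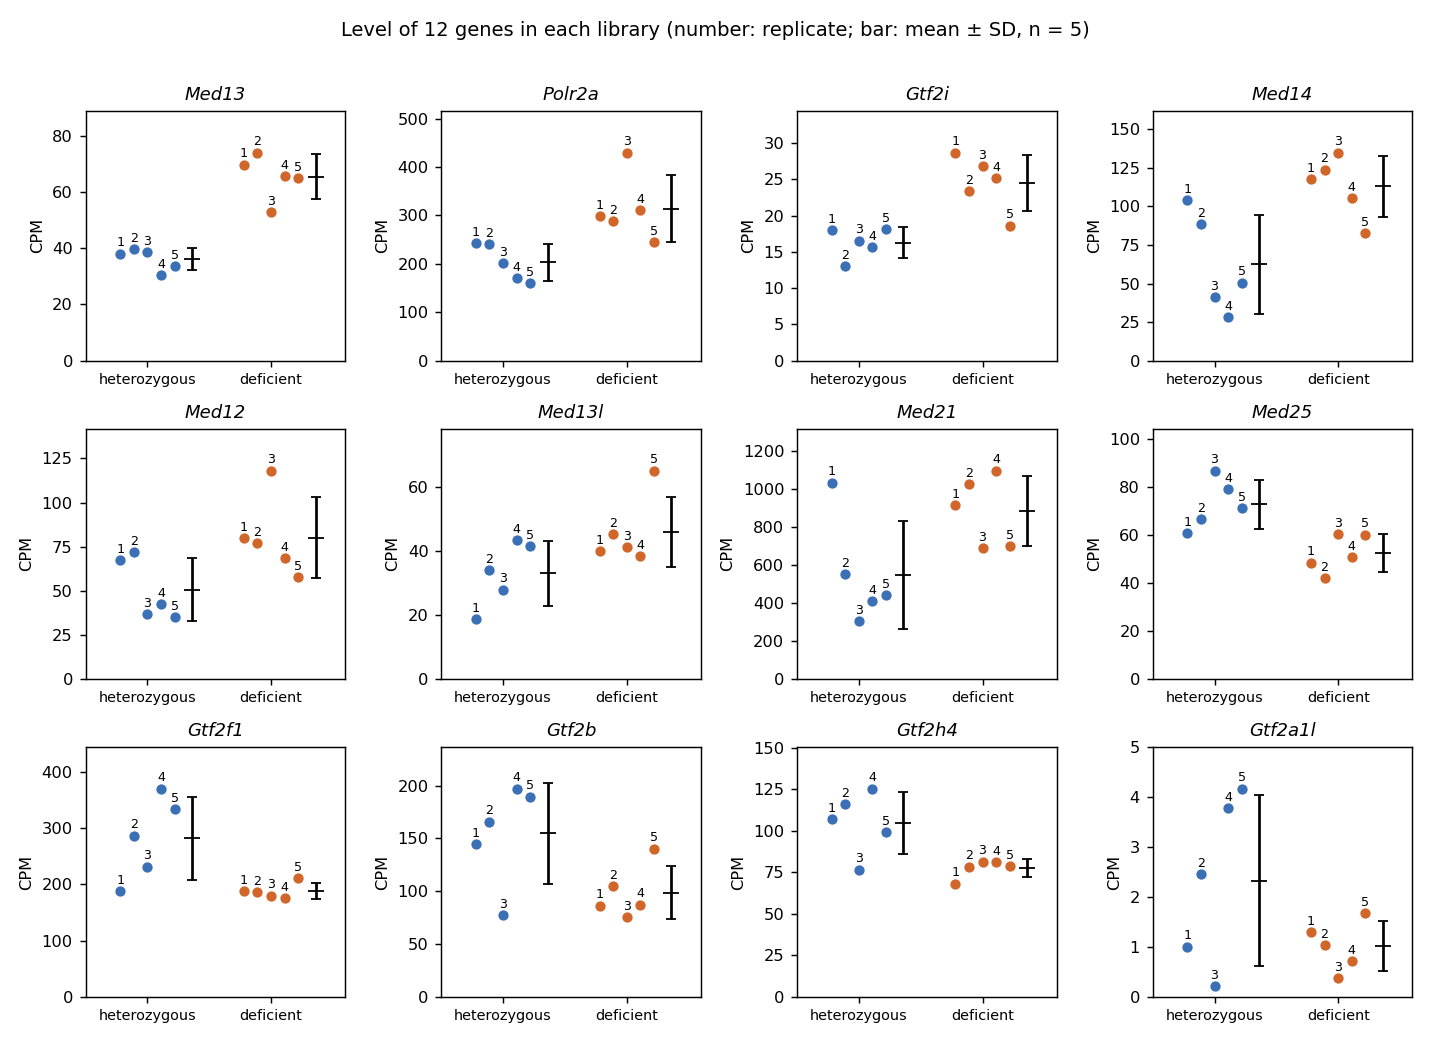
Level in CPM (y axis, from 0) of 12 genes in each library, with heterozygous on the left and deficient on the right; numbers give the replicate and black bars the mean ± SD (n = 5). Med13 shows a clear gap between 39.8 and 52.7 CPM, whereas Med14, Med12 and Gtf2b have heterozygous libraries inside the deficient range.

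Med14, also on the X chromosome, is the scaffold that holds head, middle and tail together. It was at 104, 88.6, 41.2, 28.2 and 50.6 CPM in heterozygous libraries 1 to 5, and 118, 124, 135, 105 and 82.6 CPM in deficient libraries 1 to 5. Heterozygous 1 and 2 lay above deficient 5, and the other heterozygous libraries below every deficient library. For Med14 the log2 fold change was 0.85 ± 0.31 (SE; adjusted p = 0.214, edgeR), and the within-date differences of 0.30, 1.89 and 0.87 were uneven.

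Med21, a small middle subunit near the hinge of Mediator, was abundant and spread widely among heterozygous libraries, at 1033, 551, 305, 408 and 439 CPM. Deficient libraries 1 to 5 were at 914, 1024, 687, 1096 and 697 CPM. Heterozygous 1 lay among the deficient libraries, and the other 4 lay below all of them. Med21 had a log2 fold change of 0.69 ± 0.31 (SE; adjusted p = 0.284, edgeR). Without heterozygous 1 it was 1.06 with an adjusted p of 0.0432 by edgeR, the lowest of a range of 0.0432 to 0.971 over the 28 alternatives. Its litter date differences were 0.28, 1.25 and 0.99. Med1, the middle subunit that binds nuclear receptors, was at 156 ± 40.0 and 168 ± 15.9 CPM (SD, n = 5 each), with a log2 fold change of 0.11 ± 0.20 (SE; adjusted p = 0.819, edgeR).

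Med25 (ENSMUSG00000002968, chr7:44876765-44892712), a tail-associated subunit that receives activators, was the only gene of the set lower in all deficient libraries at this scaling. It was at 60.8, 66.6, 86.8, 79.0 and 71.1 CPM in heterozygous libraries 1 to 5, and 48.4, 41.8, 60.3, 50.8 and 60.1 CPM in deficient libraries 1 to 5. The gap between heterozygous 1 and deficient 3 was small, and its genotypes overlapped in 5 of 6 alternatives of scaling or filter. The difference was -0.48 ± 0.17 (log2 fold change, SE; adjusted p = 0.207, edgeR), and -0.39, -0.71 and -0.36 within litter dates. Med24, another tail subunit, was at 73.8, 156, 127, 143 and 111 CPM in the heterozygous and 76.0, 82.2, 114, 57.4 and 98.8 CPM in the deficient libraries, and heterozygous 1 and heterozygous 5 lay within the deficient range. Its log2 fold change was -0.51 ± 0.24 (SE; adjusted p = 0.296, edgeR). Med15, a tail target of activators, had -0.040 ± 0.23 (SE; adjusted p = 0.952, edgeR), at 151 ± 50.4 and 147 ± 25.5 CPM (SD, n = 5 each). Med10 was at most 0.303 CPM in any library, with 26 counts in all, and was not tested. It shares 92.8% of its exon bases with Gm26819 on the opposite strand.

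The remaining Mediator genes had overlapping genotypes and adjusted p-values of at least 0.359 by edgeR. In the head, which contacts the polymerase, log2 fold changes ran from -0.41 ± 0.22 for Med8 to 0.17 ± 0.20 for Med11 (SE), and heterozygous means from 23.1 ± 4.64 CPM for Med11 to 192 ± 13.02 CPM for Med17 (SD, n = 5). In the middle, Med26, which recruits elongation factors, had -0.16 ± 0.31, and Med7, the partner of Med21, had 0.10 ± 0.23 (log2 fold change, SE). Med4, Med9, Med19 and Med31 lay between -0.15 and -0.0093. In the tail, Med16 had -0.36 ± 0.27 and Med23, a target of signal-driven activators, -0.19 ± 0.26 (log2 fold change, SE), and Med27, Med28, Med29 and Med30 lay between -0.19 and 0.0022.

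The authors' deposited table called 3 of 58 genes of the set, all higher in deficient libraries, beside 6.55% of its 17881 genes in either direction and 3.2% in that direction. For Med13 the authors' deposited table gave a log2 fold change of 0.79 (adjusted p = 0.000508, DESeq2). The authors' deposited table gave 0.64 for Med13l (adjusted p = 0.0207, DESeq2) and 0.54 for Polr2a (adjusted p = 0.0401, DESeq2). Its fold changes were rebuilt by DESeq2 with a 3-level grouping of the libraries as a covariate, to within 0.00555 for 31181 genes. The grouping was inferred from those fold changes and is not in the labels. Level 1 holds heterozygous 1, deficient 1 and deficient 2, level 2 holds heterozygous 2 and 3 and deficient 3 and 4, and level 3 the 3 libraries highest for Hba-a1. Within these levels the log2 differences were 0.90, 0.57 and 1.00 for Med13, 1.15, 0.36 and 0.61 for Med13l, and 0.27, 0.73 and 0.56 for Polr2a.

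Lists of genes that work beside this machinery were read in the same edgeR test, and none of their members was called (0.0% of all genes). Of 18 tested TFIID and TBP family genes, 9 had positive and 9 negative fold changes. Taf5, a core scaffold of TFIID, was at 189, 186, 82.0, 61.1 and 139 CPM in the heterozygous and 276, 287, 347, 258 and 219.7 CPM in the deficient libraries, with no overlap and a log2 fold change of 1.08 ± 0.30 (SE; adjusted p = 0.151, edgeR). Tbp, the TATA-binding protein, was lower in every deficient library by a thin margin, with 118.5 CPM in the lowest heterozygous and 117.6 CPM in the highest deficient library (log2 fold change -0.42 ± 0.19, SE; adjusted p = 0.285, edgeR). Of 27 pausing and elongation genes, 12 were positive and 15 negative. Ccnk, the cyclin of the tail kinases CDK12 and CDK13, was at 23.8, 20.8, 14.7, 17.8 and 21.8 CPM in the heterozygous and 32.3, 45.6, 33.4, 37.7 and 35.1 CPM in the deficient libraries. Its genotypes did not overlap, and its log2 fold change was 0.90 ± 0.19 (SE; adjusted p = 0.116, edgeR). Cdk12 had 0.62 ± 0.22 and Cdk13 0.91 ± 0.27 (log2 fold change, SE). The authors' deposited table called 4 of the 27 (14.8%), all higher, beside 6.55% of its genes in either direction and 3.2% higher: Ccnk, Cdk12, Cdk13 and the elongation scaffold Aff4. The authors' deposited table also called Taf5 higher (adjusted p = 0.0127, DESeq2) and Taf4b itself lower (adjusted p = 0.000152, DESeq2), 2 of 18 TFIID and TBP family genes.

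Integrator, which cleaves nascent transcripts, had 4 positive and 10 negative fold changes among 14 genes, and Ints1, its largest subunit, had the smallest p with 1.04 ± 0.38 (log2 fold change, SE; adjusted p = 0.213, edgeR). Ints1 was the 1 of 14 Integrator genes (7.14%) that the authors' deposited table called, higher (adjusted p = 0.0148, DESeq2). That comparison called 0 of the 19 polymerase I and III genes (0.0%), beside 6.55% of all its genes in either direction. Neither count is a result about these lists. Polymerase I and III subunits had 6 positive and 13 negative, and the smallest p among them was that of Polr3k, at -0.56 ± 0.21 (log2 fold change, SE; adjusted p = 0.213, edgeR). Of 8 further TFIIH and kinase module genes, 4 were positive and 4 negative. Median log2 fold changes were 0.020 for TFIID, -0.062 for pausing and elongation, -0.11 for Integrator, -0.16 for polymerases I and III and -0.079 for the TFIIH and kinase module genes, against -0.015 over all genes.

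The heterozygous libraries spread more than the deficient libraries for most genes of the set. Among 55 genes at 10 CPM or more, the SD of log2(CPM + 1) was larger in heterozygous libraries for 48 (87.3%), against 83.1% of 9235 genes at that level. The median SD over the 55 was 0.37 in heterozygous and 0.22 in deficient libraries, and 0.43 and 0.27 over all 9235. Heterozygous 3 and heterozygous 5 each held the highest value for 17 of the 58 genes (29.3%), against 19.0% and 18.5% of all genes. Deficient 3 held the lowest value for 12 (20.7%), against 9.27% of all genes. Genes chosen here after their values were seen show how far single libraries stood out. In heterozygous 3, Med22, a head subunit, was at 162 CPM against 72.4 to 92.8 CPM elsewhere, and Gtf2h3, of the TFIIH core, at 248 CPM against 115 to 134 CPM. Gtf2e2, of TFIIE, was at 573 CPM in heterozygous 3 against 262 to 406 CPM elsewhere, and Polr2b at 980.3 CPM against 355 to 701 CPM. Med30 stood out in heterozygous 5 and deficient 5 instead, at 117 and 93.9 CPM against 37.5 to 65.8 CPM. Med17, a head subunit, was the steadiest, at 192 ± 13.02 and 179 ± 9.13 CPM (SD, n = 5 each).

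Transcript length moved with library as well. With the genes placed in 5 equal classes of exon length, the set had 11 genes in each of the shortest and longest classes at 10 CPM or more, and the median deviation of the longest minus that of the shortest was taken in each library on the log2(CPM + 1) scale. For the set it was -0.20, 0.38, -0.19, -0.25 and -0.80 in heterozygous libraries 1 to 5 and 0.40, 0.19, 0.70, 0.054 and -0.14 in deficient libraries 1 to 5. For all genes it was -0.19, 0.39, 0.15, -0.25 and -0.53 in heterozygous and 0.16, 0.029, 0.49, -0.10 and -0.29 in deficient libraries. Heterozygous 5 was lowest and deficient 3 highest on both measures. Med13, Med13l, Med12, Med14, Polr2a and Gtf2i are in the longest class, as are Med25 and Med12l, which ran the other way. Of 13 tested genes of the set in that class 7 had positive fold changes, with a median of 0.11 against 0.071 for all genes of the class. The part of length in the genotype differences was not tested.

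**Figure D4:**
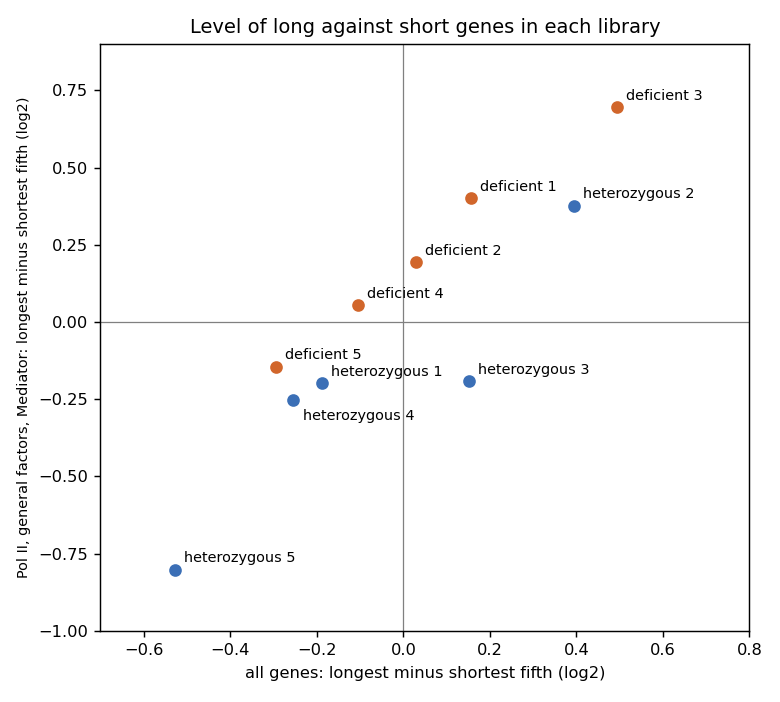
Median level of genes in the longest minus the shortest exon length class in each library, for all genes at 10 CPM or more (x axis) and for the set (y axis), both on the log2 scale. Heterozygous 5 is at the lower left and deficient 3 at the upper right, and deficient 5 lies among heterozygous libraries.

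Levels per length depended on which deposited values were read. By deposited TPM the most abundant genes of the families were Polr2d at 1223 ± 237 TPM, Med15 at 318 ± 61.3 TPM and Gtf2i at 284 ± 61.1 TPM (SD, n = 10 libraries). TPM computed from the deposited counts and exon lengths gave 172, 36.4 and 5.63 for the same genes. The deposited value was over 3 times the count-derived value for 6 genes, with ratios of 50.5 for Gtf2i, 14.9 for Med13, 8.75 for Med15, 7.12 for Polr2d, 6.46 for Med12l and 4.79 for Med13l, against a median ratio of 0.44 over the 58 tested genes. Polr2k ran the other way with a ratio of 0.0455, at 16.54 ± 8.96 deposited TPM (SD, n = 10). By count-derived TPM the highest were Med21 at 566 ± 203, Polr2j at 534 ± 79.4 and Gtf2e2 at 426 ± 94.8 (SD, n = 10), with SDs that overlap between neighbours in that order. The lowest of the tested genes were Gtf2ird1, Med12l and Gtf2a1l, at 1.42, 1.88 and 2.60. The direction of the genotype difference was the same in counts and in deposited TPM for 57 of 58 genes.

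**Figure D5:**
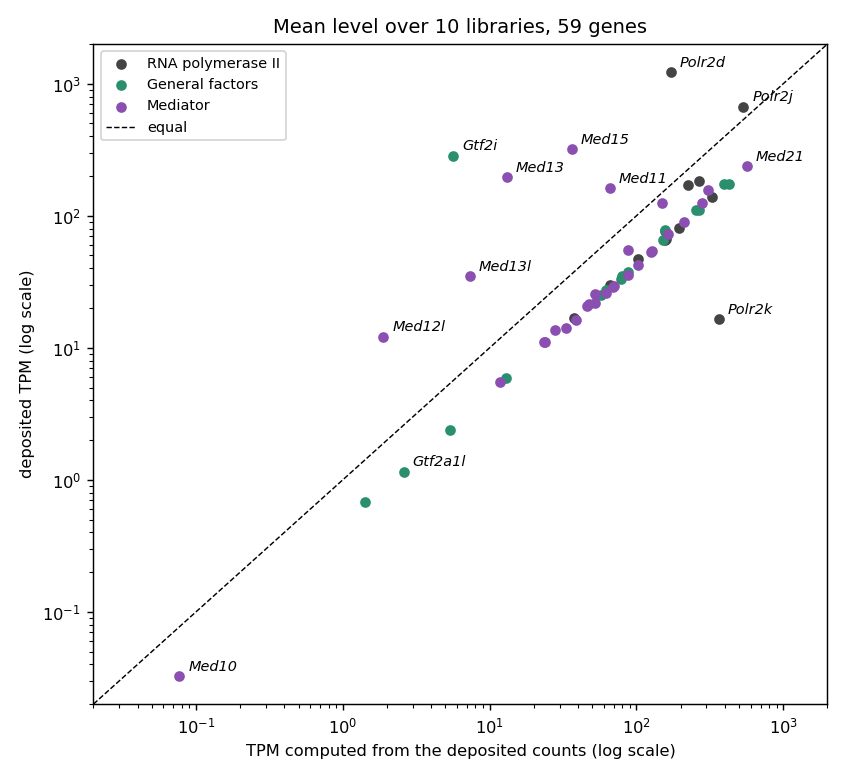
Mean over 10 libraries of deposited TPM (y axis, log scale) against TPM computed from the deposited counts (x axis, log scale) for the 59 genes. Most genes fall on a line below equality, while Gtf2i, Med13, Med15, Polr2d, Med12l and Med13l lie far above it and Polr2k far below.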

How the data were processed

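The counts the authors deposited are whole numbers for each gene, in a table named for featureCounts, and the TPM they deposited are in a table named for StringTie. The submitters' processing notes name Trim Galore 0.5.0, HISAT2 2.1.0, Subread 1.6.2, StringTie 1.3.3b and the build GRCm38. The authors' deposited comparison from DESeq2 holds log2 fold changes with standard errors, Wald statistics (a score), mean normalized counts (a signal), p-values and adjusted p-values, per the file headers. Taf4b gave its sign, deficient over heterozygous. How strand and multi-mapped reads were treated in counting is not given in the sources used here. Of the 59 genes, 24 share exon bases with another gene, 11 of them over 10%.

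The counts were fitted with edgeR 4.0.16 in R 4.3.3 (quasi-likelihood, genotype alone, TMM scaling, expression filter, 19244 genes), with Benjamini-Hochberg adjustment over all genes and calls under 0.05. Standard errors are the size of the log2 fold change over the square root of its F statistic. CPM use TMM-scaled library sizes. Within-date and within-level differences are means of log2(CPM + 1). Count-derived TPM used GENCODE M21 exon lengths. Alternatives were other scalings and filters, DESeq2 1.42.0, limma 3.58.1 (voom, log2(TPM + 1) and log2(TPM + 0.1)), litter date, replicate number or the deposited grouping in the model, and libraries, dates or Hba-a1-high libraries left out. Leaving out levels 1 and 2 of the grouping was added after the data were seen. The test was tested on simulated data, with counts drawn separately for each gene and library. Such data lack shifts shared by genes in a library, so they do not show how the test behaves here.

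The set and the gene lists were chosen with earlier results of these data known. The genes named are the highest and lowest by TPM in each family, the 6 smallest p in each direction, genes whose genotypes did not overlap, genes called in the deposited table, a defined set (Polr2a, Gtf2b, Gtf2a1, Gtf2a1l, Med1, Med12, Med12l, Med13, Med13l, Med14), and the smallest p of each list. Other genes named as partners or extremes were chosen after their values were seen. Genes without a symbol, 382 of 55536, took 0.0632% to 0.0945% of a library's counts and stayed in the fit. Protein sequences were not used here.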

Additional observations from a re-analysis of the deposited data

Results flagged for a closer look

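Of 42 groups of 5 libraries tested, covering the named genes in each genotype, 2 held a library far from the other 4, and chance flags about 1 group in 20. Gtf2h4 in deficient 1 was at 68.1 CPM, below the other deficient libraries, which lay between 78.4 and 81.3 CPM. Med13l in deficient 5 was at 65.2 CPM, above the other deficient libraries, which lay between 38.4 and 45.2 CPM.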

How the results depend on the processing

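The count of genes called over all genes was the least stable result: 0 on genotype alone, 251 with no low-count filter, 679 with DESeq2, 510 with voom, 104 with the deposited grouping, 1 with the replicate block, and 0 to 606 when 1 library was left out, the highest without heterozygous 1. Genes of the set called were 0, and 1 under DESeq2, voom and the deposited grouping, which was Med13 each time, with 0 to 2 when 1 library was left out. Genes whose genotypes did not overlap numbered 4. They numbered 3 with RLE size factors, upper-quartile scaling, library totals, the 1 CPM filter and DESeq2, where Med25 overlapped. With no low-count filter they also numbered 3, as Polr2a overlapped. With 1 library left out they numbered 3 to 8 (8 without heterozygous 1). They numbered 15 without litter date 1, and 8 and 13 without levels 1 and 2 of the grouping. Fewer libraries make such gaps easier, and the share of all genes in each of these settings is not given here. These counts are therefore not a result about the set. The median over all genes was 0.12 with no filter, and -0.023 to 0.0010 with 1 library left out. For the general factors the median of -0.083 was 0.0051 with voom, -0.18 on log2(TPM + 1), -0.19 on log2(TPM + 0.1), -0.16 without litter date 3, -0.19 without the 3 libraries highest for Hba-a1, and -0.15 to 0.0015 with 1 library left out. The medians of the whole set, polymerase II and Mediator stayed negative in all 28 alternatives. Of 588 values for 21 named genes, 568 kept direction and side of the threshold, 5 passed it and 15 changed sign. Med15, close to 0, did so with voom (0.060), litter date (0.069), the replicate block (0.0088), without litter date 1 (0.034), without level 2 (0.17), and without heterozygous 2 (0.014), heterozygous 3 (0.13) or deficient 5 (0.019), in a range of -0.17 to 0.13 with 1 library left out. Polr2d was 0.051 with voom and 0.090 without litter date 2. Polr2k was -0.0060 with litter date and -0.32 without litter date 3. Without the 3 libraries highest for Hba-a1, Gtf2ird1 was 0.15, Med1 -0.079 and Med12l 0.019. The cause of these shifts was not tested. Same-numbered libraries did not deviate together in all pairs (correlations 0.205, 0.071, 0.163, -0.338 and 0.659), so the numbers do not pair the libraries; the replicate block called 0 genes of the set.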
